A study of Mus musculus with 12 samples.

Results

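CD169+ macrophages of the fetal liver were compared between Vav-Cre positive and Vav-Cre negative embryos, over every gene of their deposited count table. The comparison held 6 of the 12 libraries of the series, 3 of each genotype, and the other 6 came from haematopoietic stem cells (HSCs). Mouse embryos were taken at E14.5, and the series title names the strain C57BL/6. Both groups were homozygous for a floxed Jag1 allele, so the genotypes were Jag1ff/VavCre+ and Jag1ff/VavCre-, and the labels give no treatment. For each library 1000 to 3000 cells were sorted, and full-length cDNA was made from 1 ng of RNA with 11 cycles of amplification by the SMART-Seq v4 kit, whose reads carry no strand. The labels name no number of embryos per library and do not say that the libraries came from separate embryos, so p-values measure only the spread between these libraries.

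CD169 is sialoadhesin, the product of Siglec1, a receptor of resident macrophages. In the fetal liver such macrophages sit at the centre of erythroblastic islands, where they hold maturing red cell precursors by adhesion molecules, engulf the expelled nuclei and recycle iron and heme. Jag1 encodes Jagged1, a membrane ligand that activates Notch receptors on a neighbouring cell, after which gamma-secretase frees the receptor's intracellular part to act with RBPJ on target genes. The Vav-Cre transgene recombines floxed alleles throughout the blood lineages, macrophages included, and has been reported to act in some endothelium too, so a Cre positive embryo can lose Jag1 in cells other than the sorted ones.

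Depth and the make-up of the libraries differed before any gene was compared. Totals were 2602934 to 5366990 counted reads in Cre positive and 17230019 to 24658205 in Cre negative libraries, so that 3 reads, the floor used here, stood for 0.522 to 1.08 CPM (the counts-per-million scale) in the former and 0.138 to 0.174 CPM in the latter. Counts were therefore also drawn down at random to 2602934 reads per library, called equal depth below. At equal depth 18721, 29344 and 26192 genes had reads in Cre negative libraries 1, 2 and 3, and 14655, 19662 and 15383 in Cre positive libraries 1, 2 and 3 (exact two-sided permutation p = 0.2, where 3 against 3 libraries cannot go below 0.1). Cre negative libraries 2 and 3 were alike (Pearson r of log2(CPM + 1) = 0.90 over 7362 genes, a correlation across genes), and every other pair lay between 0.461 and 0.715. Replicate 1 of each genotype held Y-linked reads and 68 or 0 reads of Xist, and the other 4 libraries held 6239 to 19283 reads of Xist.

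The genes that mark the sort were present in every library, at levels that spread widely within each genotype. Siglec1 measured 18.2, 115 and 117 CPM without Cre (libraries 1, 2 and 3) against 16.2, 102 and 67.7 CPM with it (libraries 1, 2 and 3), an order kept for all values below. Replicate 1 of each genotype was low and the other 4 libraries high, and the genotypes overlapped. Adgre1, which encodes F4/80, measured 22.3, 403 and 375 CPM against 60.1, 60.2 and 70.8 CPM. Csf1r, the receptor for the macrophage growth factor, measured 152, 856 and 897 CPM against 114, 81.3 and 689 CPM, and Cd68, a lysosomal glycoprotein of macrophages, 5.68, 145 and 130 CPM against 4.68, 64 and 61.9 CPM. C1qa, a chain of complement C1q, measured 45.8, 264 and 308 CPM against 43.9, 39.8 and 235 CPM. On this scale Cre negative libraries 2 and 3 were the 2 highest of the 6 in each of these 5 markers, and Cre negative library 1 lay below at least 1 Cre positive library. On the TPM scale, which also divides by gene length, the highest library was instead Cre positive 2 for Siglec1 (48 TPM) and Cre positive 3 for Csf1r (406 TPM) and C1qa (769 TPM).

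Transcripts of the endothelial genes Stab2, Lyve1 and Kdr outweighed those of the sort marker Siglec1 in all 6 libraries, but not those of every macrophage marker. In TPM, Stab2, a scavenger receptor of liver sinusoidal endothelium, reached 643 to 1961 TPM, against 7.57 to 48 TPM for Siglec1 and 23.1 to 285 TPM for Adgre1. C1qa, at 583 and 697 TPM in Cre negative libraries 2 and 3 and 769 TPM in Cre positive library 3, lay above Kdr there (314, 332 and 646 TPM). In the other libraries C1qa lay below Kdr. The 24 endothelial markers took 2.13%, 1.03% and 1.03% of reads in Cre negative and 1.79%, 2.22% and 1.75% in Cre positive libraries, and the 30 macrophage markers 0.231%, 0.768% and 0.686% against 0.29%, 0.292% and 0.537%. Hepatocyte markers took 0.529% of reads in Cre negative library 1 and 0.0584% to 0.0984% in the other 5. Stellate and mesenchymal markers took 0.317% there and 0.0747% to 0.13% in the others. Cre negative library 1 therefore stood apart from its own group in 4 cell types at once, with a lower macrophage share and higher endothelial, hepatocyte and stellate shares than Cre negative libraries 2 and 3. What share of the reads came from macrophages was not tested, and in a bulk sample fewer cells of a type and less RNA per cell cannot be told apart.

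**Figure D1:**
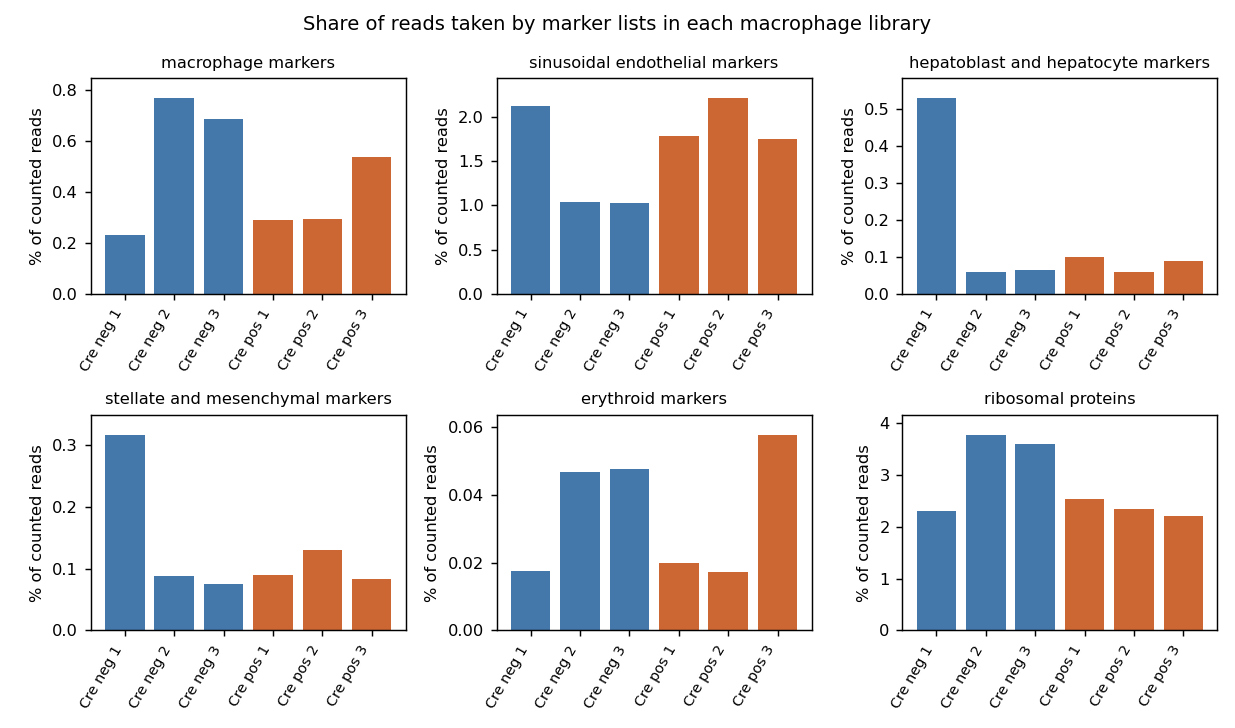
Percent of all counted reads (vertical axis, from 0 in each panel) taken by 5 marker lists and by ribosomal protein genes, 1 bar per library, Cre negative in blue and Cre positive in orange. Macrophage markers ran from 0.231% to 0.768%, and Cre negative library 1 had the lowest macrophage share and the highest hepatocyte share of the 6, at 0.529%.

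Stretches of sequence just before the start sites of 5 macrophage marker genes are shown because 20 of the 29 markers tested were highest in Cre negative libraries 2 and 3. The myeloid transcription factor PU.1, product of Spi1, recognises purine-rich sites whose classic form is the PU box GAGGAA. That motif, sought on both strands in the 60 bases before the start, was found for 7 of the 22 macrophage markers with an entry in the RefSeq promoter table (GRCm38.p6), that is 31.8%, for 3 of 14 endothelial markers (21.4%) and for 7.02% of all 27025 genes in the table. Shown 5′ to 3′ on the strand of the gene, with the motif or its reverse complement in capitals, are the 5 of the 7 with a mean of at least 20 CPM.
Mrc1 (chr2:14229354-14229413, plus strand): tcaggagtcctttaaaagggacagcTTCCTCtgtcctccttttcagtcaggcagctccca
C1qb (chr4:136886201-136886260, minus strand): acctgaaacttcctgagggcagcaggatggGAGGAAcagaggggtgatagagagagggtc
Aif1 (chr17:35176053-35176112, minus strand): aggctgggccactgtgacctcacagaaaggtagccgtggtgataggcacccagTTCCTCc
Fcgr1 (chr3:96293970-96294029, minus strand): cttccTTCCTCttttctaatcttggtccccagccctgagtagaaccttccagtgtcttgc
Trem2 (chr17:48346341-48346400, plus strand): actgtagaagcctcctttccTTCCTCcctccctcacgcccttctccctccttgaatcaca

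A match is a description of the letters and shows no binding, and the 5 genes did not behave alike. C1qb, the B chain of complement C1q, measured 31.9, 741 and 559 CPM against 70.2, 34.2 and 196 CPM. Aif1, an actin-binding protein of macrophages, measured 20.1, 188 and 146 CPM against 7.56, 5.95 and 53.8 CPM, and Trem2, a lipid-sensing receptor, 3.88, 36.6 and 65 CPM against 3.96, 7.25 and 41.6 CPM. Fcgr1, an Fc receptor, measured 11.5, 97.3 and 94.2 CPM against 39.2, 19 and 66.1 CPM. Cre negative libraries 2 and 3 were the 2 highest in C1qb, Aif1 and Fcgr1, while in Trem2 Cre positive library 3 came between them. Mrc1, the mannose receptor, which liver sinusoidal endothelium also expresses, was level at 1286, 1174 and 1353 CPM against 1406, 1654 and 1281 CPM. Spi1 itself measured 6.43, 123 and 104 CPM against 42.1, 18 and 53.9 CPM, with the genotypes overlapping.

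Across all genes, no single gene met the threshold. By edgeR's quasi-likelihood test 0 of 17806 genes had a Benjamini-Hochberg adjusted p under 0.05, which is 0% of those tested, and the smallest was 0.225. Unadjusted p-values under 0.05 went to 91 genes (0.511%) on the higher and 874 (4.91%) on the lower side in Cre positive libraries. The split depended on the scaling and on the genes tested: it was 235 to 684 with relative log expression, 180 to 730 with upper-quartile scaling, 214 to 671 on library totals and 180 to 334 among genes with a mean of at least 5 CPM. At equal depth 0 of 12679 genes were called (0%, smallest edgeR adjusted p = 0.999), and the unadjusted counts were 161 higher (1.27%) and 328 lower (2.59%). Genes without overlap at equal depth came to 4.43% on the higher and 8.18% on the lower side. DESeq2 called 8 higher genes (0.0588% of the 13602 it kept) and 46 lower ones (0.338%), and 21 of these calls had 0 reads in all Cre positive libraries. The shallower libraries were all Cre positive, so depth and genotype cannot be told apart in the full counts.

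Leaving out Cre negative library 1, the one with the different make-up, brought 7 genes past the threshold (0.0376% of 18617 tested), all lower in Cre positive libraries, beside unadjusted p-values under 0.05 in 1.23% of genes on the higher and 6.15% on the lower side. Adgre1 reached a log2 fold change of -2.60 (SE 0.38, edgeR adjusted p = 0.0307), against -2.06 (SE 0.79, adjusted p = 0.773) with all 6 libraries. Apoe fell by 1.35 on the log2 scale (SE 0.21, edgeR adjusted p = 0.0396) and Ccl6 by 3.94 (SE 0.66, adjusted p = 0.0468). Itgb5, the integrin beta 5 chain, measured 37.5, 282 and 254 CPM against 39.9, 22.9 and 47.7 CPM, and Tmsb4x, the actin-binding peptide thymosin beta 4, 421, 2584 and 2570 CPM against 902, 362 and 739 CPM (edgeR adjusted p = 0.0468 for both). The other 2 were the mitochondrial ribosomal RNAs mt-Rnr1 (adjusted p = 0.00756, edgeR) and mt-Rnr2 (adjusted p = 0.0403, edgeR). The former measured 34280.5, 86276.5 and 82888.3 CPM against 48746.4, 37974.2 and 36826.2 CPM. For Adgre1, Itgb5, Tmsb4x, mt-Rnr1 and mt-Rnr2 the omitted library lay below or within the Cre positive range. In Apoe and Ccl6 it was the lowest of the Cre negative libraries. So its omission widens the difference of all 7 genes by construction. Of these 7 genes only Apoe and Ccl6 lacked overlap with all 6 libraries present. Cre negative library 1 was also the one of its group with 68 reads of Xist and many Y-linked reads. Its omission therefore left Cre positive library 1 as the only library of that kind. Among the 4 libraries with Xist reads, an added choice, only mt-Rnr1 and mt-Rnr2 passed the threshold, of 22564 genes tested. Leaving out Cre positive library 3, which had the highest macrophage share of its group, brought 3 genes past the threshold on the higher and 31 on the lower side. These were of 24500 genes tested, with unadjusted p-values under 0.05 in 301 on the higher and 1228 on the lower side. Among the genes past the threshold were Aif1 (log2 fold change -4.18, edgeR adjusted p = 0.00121), Psap (-1.95, adjusted p = 0.00189), Cx3cr1 (-3.17, adjusted p = 0.0166) and Blvrb (-3.80, adjusted p = 0.0173), described with their lists, and Myo6 on the higher side (1.82, adjusted p = 0.0151). The omitted library was the highest of its group in Aif1, Psap, Cx3cr1 and Blvrb and the lowest in Myo6. Its omission therefore widens these differences by construction. Without any of the other 4 libraries, 1 to 4 genes passed on the lower and 0 on the higher side. Why the calls moved with these libraries was not tested.

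Genes whose 3 Cre positive values all lay on one side of the 3 Cre negative ones were taken in order of unadjusted p, 12 in each direction, from those that also lacked overlap at equal depth and reached 20 CPM in the higher group. Of 8278 genes at that level, 282 (3.41%) lay higher and 646 (7.8%) lower without overlap in both counts. The 646 had a median exon length of 4275 bases, against 5222.5 over the 8278 and 5812 for the 282. Apart from Rbp4 (adjusted p = 0.225), the 24 genes chosen had an edgeR adjusted p of 0.773 with all 6 libraries, so what follows gives their values and no call.

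Macrophage and immune genes made up part of the lower 12. Apoe (chromosome 7, 19696109 to 19699188), the lipoprotein by which macrophages export cholesterol, measured 3042, 5086 and 5809 CPM against 2312, 1609 and 2458 CPM. Its log2 fold change was -1.13 (SE 0.28) and -0.98 at equal depth, and Cre negative library 1 lay nearer to the Cre positive libraries than Cre negative libraries 2 and 3 did. Ccl6 (chromosome 11, 83587882 to 83593087), a myeloid chemokine, measured 19.7, 171 and 151 CPM against 7.92, 6.88 and 16.4 CPM. Its lowest Cre negative value, in library 1, was close to its highest Cre positive one. Psmb10, a catalytic subunit of the immunoproteasome, measured 3.59, 54 and 50.4 CPM without Cre and had 1 read over the 3 Cre positive libraries, a ratio of 532 (95% counting interval 95.4 to 21022). Cd52, a short glycosylated peptide of leukocyte membranes, measured 5.1, 36.6 and 30.9 CPM against 0 reads, at least 33.7-fold lower by the floor of 3 reads per library.

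Of the others of the lower 12, Ppan, Vegfb and Lrrc59 were even across the Cre negative libraries, library 1 included. Ppan, a factor of ribosome assembly, measured 51.1, 54.1 and 58.7 CPM against 1.8, 4.46 and 5.39 CPM (log2 fold change -3.80, SE 0.99). Vegfb, a growth factor of the VEGF family, measured 43.2, 58.3 and 48.1 CPM against 1.44, 2.97 and 5.57 CPM (-3.89, SE 1.07), and Lrrc59, a ribosome-binding protein of the endoplasmic reticulum, 210, 219 and 220 CPM against 47.9, 97.6 and 86.8 CPM (-1.48, SE 0.41). The macrophage share of those Cre negative libraries ran from 0.231% to 0.768%, and its part in the differences of these genes was not tested. Sephs2, a selenophosphate synthetase, measured 29.2, 29.5 and 14.1 CPM against 0 reads, at least 33.7-fold lower. Hist4h4, a histone gene with near-identical copies whose reads may be split by the counting, measured 58.1, 17.2 and 38.8 CPM against 0, 0 and 0.87 CPM, and Taf7, which belongs to the general transcription factor TFIID, 20.6, 38.1 and 91.2 CPM against 0.36, 2.79 and 1.74 CPM. Gpt2, a mitochondrial alanine transaminase, measured 47.8, 9.2 and 30.2 CPM against 1 read in all (ratio 386, counting interval 69.3 to 15273).

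Rbp4, the liver's carrier of retinol, had the smallest unadjusted p of all genes and belongs with the hepatocyte markers. It measured 177, 10.9 and 21.4 CPM without Cre and had 1 read over the 3 Cre positive libraries, a ratio of 863 (counting interval 155 to 34103), or 225 (40.3 to 8905) without Cre negative library 1. Library 1, the highest, was also the one with the hepatocyte share of 0.529%. The part of those cells in the difference was not tested.

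The 12 genes on the higher side had smaller folds than most of the lower 12. Myo6, a motor that moves toward the minus end of actin, measured 107, 86.9 and 112 CPM against 481, 262 and 167 CPM (log2 fold change 1.57, SE 0.41). Foxo1, a transcription factor held back by insulin and Akt signalling, measured 52, 50.4 and 61.1 CPM against 210, 147 and 108 CPM (1.51, SE 0.45). In both genes Cre positive library 1, the shallowest, was the highest of the 6. Ago4, an Argonaute protein of small RNA silencing, was nearly constant at 10.3, 12.1 and 11.9 CPM without Cre and measured 55.8, 32.5 and 84.9 CPM with it (2.34, SE 0.83).

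Cenpc1, a centromere protein, measured 48.2, 48.3 and 55.1 CPM against 122, 112 and 143 CPM, and Bora, an activator of the mitotic kinase Aurora A, 43.6, 38.7 and 30.3 CPM against 170, 64.1 and 89.4 CPM. Prr11, another gene of the cell cycle, measured 16.3, 30.3 and 12.8 CPM against 144, 50.4 and 48.4 CPM. Prdm2, a histone methyltransferase, measured 68.3, 101 and 82.2 CPM against 286, 146 and 147 CPM. Of these 4 genes Cenpc1 had the narrowest spread within each genotype, while in Bora, Prr11 and Prdm2 Cre positive library 1 was again the highest. Fam208b, Zfp827, Tmem263, Gtpbp3 (a modifier of mitochondrial tRNA) and Lnx2 (a ubiquitin ligase that binds NUMB) completed the 12, with log2 fold changes of 1.19 to 1.81. The 12 log2 fold changes lay between 1.19 and 2.34 with all reads and between 1.27 and 2.64 at equal depth.

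**Figure D2:**
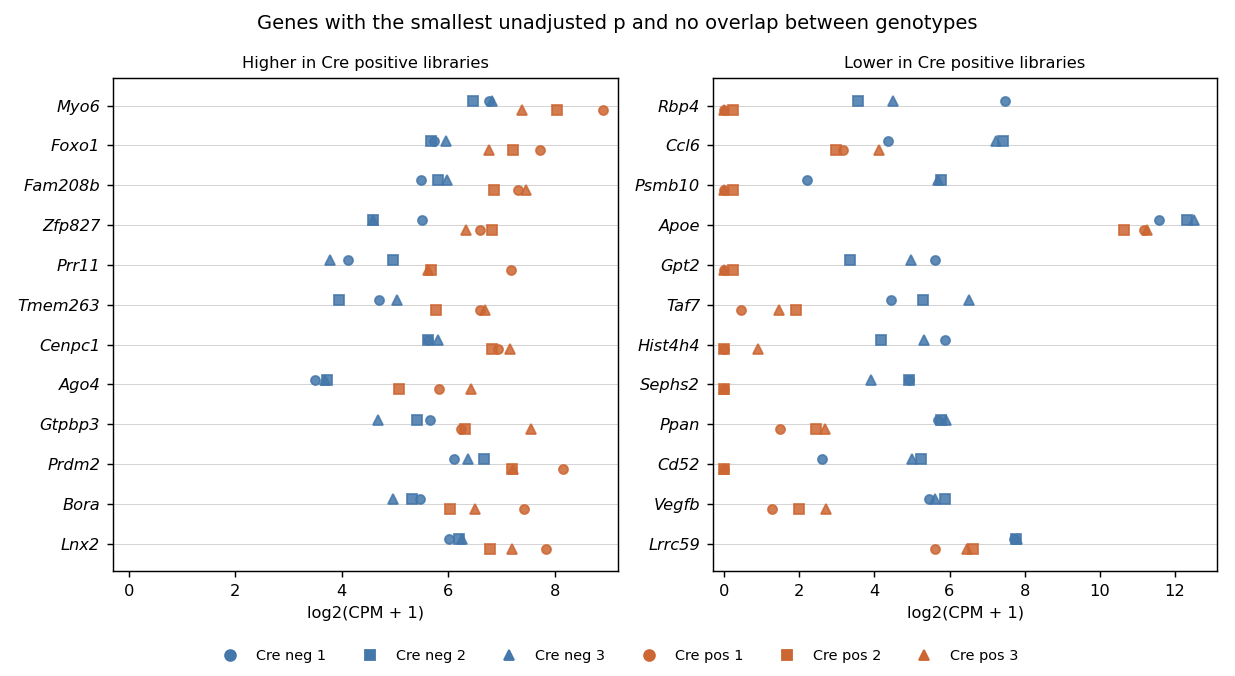
Level of each of the 24 leading genes on a log2(CPM + 1) scale (horizontal axis), with 1 point per library, Cre negative in blue and Cre positive in orange. On the left the Cre positive points lie to the right of the Cre negative ones, and on the right they lie to the left, by the rule that chose the genes, with Rbp4, Psmb10, Gpt2, Sephs2 and Cd52 at or near 0 in Cre positive libraries.

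Gene lists were then read by their counts and medians beside all genes tested. Over every gene tested the median of the log2 fold changes was -0.16 with the scaling used (TMM), -0.00 with upper-quartile scaling, 0.04 with relative log expression and 0.05 on library totals. Each list median is therefore given minus that of all genes (relative median), and with all reads 56.1% of genes had the lower level in Cre positive libraries. Lack of overlap on the lower side occurred in 11.8% of all genes tested, and on the higher side in 2.27%. An unadjusted p under 0.05 was reached by 4.91% of genes on the lower and 0.511% on the higher side. By edgeR 0 members of the lists had an adjusted p under 0.05 with all 6 libraries, while DESeq2 called 7: Rbp4, Psmb10, Cyp2e1, Ndufs5, Tlr2, Ccl6 and Dnase2a, all lower, with adjusted p-values of 1.95e-05 to 0.0451. Most lists are followed by the range of its relative median when 1 library was left out. Without a Cre positive library more genes with few reads entered the test. Over only the genes tested with all 6 libraries, a choice made after the data were seen, macrophage transcription factors, island, complement, NF-kB and mitochondrially encoded genes and Notch ligands and receptors kept their sign in all 6 fits, while hepatocyte markers, cholesterol synthesis, proteasome, niche factors and Notch targets did not.

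Of 29 macrophage markers tested, 27 had the lower and 2 the higher level in Cre positive libraries, with a relative median of -0.95, and 4 had an unadjusted p under 0.05. Only Itgam, the CD11b chain, lacked overlap (1 of 29, 3.45%), at 8.57, 4.53 and 13.3 CPM against 0, 0 and 2.09 CPM. Cx3cr1, the fractalkine receptor, measured 52.2, 190 and 209 CPM against 5.4, 29.2 and 61.3 CPM (log2 fold change -2.23, SE 0.74, edgeR unadjusted p = 0.00889). Axl, a receptor for apoptotic cells, measured 49.8, 338 and 338 CPM against 29.9, 51.7 and 127 CPM (-1.79, SE 0.68). In both, as in 20 of the 29 markers (69%, against 13.1% of all genes), the 2 highest libraries were Cre negative 2 and 3. Cre negative library 1 lay within the Cre positive range in 17 of the 29 (58.6%, against 64.7% of all genes) and below it in 10 (34.5%, against 9.79%). The relative median ran from -1.78 without Cre positive 3 to -0.26 without Cre positive 2. Without Cre negative library 1 it was -1.50, and 21 of 29 lacked overlap, where 20.4% of all genes did on the lower side. That library lay within or below the Cre positive range in most of these markers, so its omission removes overlap by construction.

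Transcription factors of macrophages split between those that followed the markers and those that did not. Of 32 tested, 24 had the lower level, with a relative median of -0.44 (from -0.62 without Cre negative 1 to 0.16 without Cre positive 2). On the lower side 4 lacked overlap (12.5%, against 11.8% of all genes), and 1 did on the higher side. Tfec, a factor of the MiT family, measured 60.3, 79.7 and 61.4 CPM against 19.1, 29.7 and 18.4 CPM (log2 fold change -1.58, SE 0.68), so that Cre negative library 1 kept with its group. Bhlhe40, a basic helix-loop-helix repressor, measured 53.2, 4.95 and 30.9 CPM against 1.8, 0 and 0.87 CPM (-5.10, SE 1.81). Id2, an inhibitor of helix-loop-helix factors, measured 60.3, 200 and 173 CPM against 28.8, 75.3 and 32.9 CPM. In Id2, unlike Tfec and Bhlhe40, the genotypes overlapped through Cre negative library 1. Maf lacked overlap at a small difference, at 658, 672 and 730 CPM against 544, 613 and 554 CPM (-0.27, SE 0.27), and Pparg and, on the higher side, Nr1h2, both lipid-sensing nuclear receptors, completed the members without overlap.

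Of 18 genes for contact with erythroblasts in the island 12 had the lower level, with a relative median of -0.26 (from -0.39 without Cre negative 3 to 0.23 without Cre positive 2). Dnase2a, Kel and Efnb2 lacked overlap (3 genes, 16.7%, against 11.8% of all genes on the lower side). Vcam1, which binds erythroblast integrins, measured 123, 207 and 100 CPM against 162, 76.4 and 93.8 CPM, and Maea, the erythroblast macrophage protein, 107, 62.7 and 77.6 CPM against 28.8, 85.3 and 47.9 CPM, both with overlap. Dnase2a, the lysosomal nuclease that degrades DNA of engulfed erythroid nuclei, measured 4.52, 76.8 and 53.1 CPM against 0, 2.6 and 0 CPM (log2 fold change -5.61, SE 1.69, edgeR unadjusted p = 0.00406). The genotypes did not overlap, though Cre negative library 1 lay closer to Cre positive library 2 than to its own group. Itgav, an integrin chain that erythroblasts bind, measured 70.4, 105 and 171 CPM against 33.5, 70.8 and 44.4 CPM and overlapped narrowly, through Cre negative library 1 and Cre positive library 2.

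Of 26 iron and heme genes 19 had the lower level (relative median -0.44, from -0.71 without Cre negative 1 to -0.15 without Cre positive 1). On the lower side 3 lacked overlap (11.5%, against 11.8% of all genes), and 3 had an unadjusted p under 0.05. Fth1, the ferritin heavy chain, measured 512, 1758 and 1559 CPM against 852, 377 and 677 CPM (log2 fold change -1.01, SE 0.41). Blvrb, a biliverdin reductase, measured 12.1, 132 and 119 CPM against 3.24, 9.67 and 38.5 CPM, and Slc48a1, the heme exporter of the phagolysosome, 59.6, 128 and 105 CPM against 33.1, 56.5 and 31.7 CPM. Slc48a1 lacked overlap with all reads but not at equal depth. Slc40a1, the iron exporter ferroportin, and Hmox1, heme oxygenase, both spread widely: 107, 851 and 698 CPM against 89.2, 177 and 524 CPM for the former, and 170, 1701 and 1194 CPM against 383, 468 and 1132 CPM for the latter. They overlapped, with Cre positive library 3 the highest of its group in both.

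Lysosome genes were lower in 38 of 46 members tested, with a relative median of -0.45 (from -0.77 without Cre negative 1 to -0.07 without Cre positive 1). An unadjusted p under 0.05 went to 7 members, and 2 lacked overlap (4.35%, against 11.8% of all genes on the lower side). Psap, the precursor of the saposins, measured 438, 809 and 818 CPM against 148, 223 and 490 CPM (log2 fold change -1.26, SE 0.41, edgeR unadjusted p = 0.00649). Ctsz, a cathepsin, measured 128, 363 and 376 CPM against 51.5, 124 and 147 CPM (-1.43, SE 0.47), and Lamp1, a lysosomal membrane protein, 235, 568 and 623 CPM against 161, 231 and 306 CPM (-1.03, SE 0.39). In all 3 the overlap came from Cre negative library 1 lying below Cre positive library 3. The 2 members without overlap were Tpp1, a peptidase, at 111, 121 and 135 CPM against 56.5, 64.5 and 53.1 CPM, and the tetraspanin Cd63, at 112, 134 and 178 CPM against 59.7, 10.2 and 82.1 CPM. Of the 46 genes 26 (56.5%, against 13.1% of all genes) were highest in Cre negative libraries 2 and 3.

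Lipid handling genes were lower in 22 of 24 (relative median -0.69, from -0.58 without Cre negative 1 to -0.22 without Cre positive 2), and 4 lacked overlap (16.7%, against 11.8% of all genes on the lower side). Besides Apoe these included Fabp5, a fatty acid binding protein, at 850, 1060 and 1093 CPM against 662, 766 and 693 CPM, and Mgll, a lipase, at 27.2, 24.5 and 10.5 CPM against 4.32, 5.39 and 4.18 CPM. Abca1, the cholesterol exporter that loads apolipoproteins, measured 259, 841 and 908 CPM against 232, 375 and 455 CPM. Cholesterol synthesis genes had the lower level in 12 of 23, with a relative median of -0.02 (from -0.053 without Cre negative 3 to 0.64 without Cre positive 2). The difference between the 2 lists was not tested.

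Complement and efferocytosis genes had the lower level in 24 of 34 (relative median -0.44, from -1.14 without Cre positive 3 to 0.084 without Cre positive 2). Without overlap were 3 lower members (8.82%, against 11.8% of all genes) and 2 higher ones (5.88%, against 2.27%). Cfp, the complement regulator properdin, measured 8.92, 158 and 130 CPM against 34.5, 6.69 and 6.61 CPM, and C3ar1, the receptor for C3a, 19.2, 83.9 and 190 CPM against 21.6, 5.76 and 45.6 CPM. Dock1, which acts with ELMO to activate RAC in engulfment, went the other way at 390, 316 and 287 CPM against 519, 543 and 522 CPM (log2 fold change 0.67, SE 0.30), with no overlap in full or equal-depth counts. Dock1 was chosen for mention after its values were seen.

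MHC class I and immunoproteasome genes had the lower level in 16 of 19 (relative median -0.41, from -0.62 without Cre negative 1 to -0.0087 without Cre positive 2), and 6 of them lacked overlap on that side (31.6%). H2-D1, a classical class I heavy chain, measured 173, 303 and 198 CPM against 123, 54.7 and 65.1 CPM (log2 fold change -1.48, SE 0.44, edgeR unadjusted p = 0.00346), and H2-K1, the other, 63.9, 86.7 and 122 CPM against 37.4, 18.6 and 43.7 CPM (-1.45, SE 0.59). For both heavy chains every Cre negative library, number 1 included, lay above every Cre positive one. The 2 genes are close in sequence to other class I genes, so the counting may have split their reads. B2m, the light chain, measured 149, 471 and 419 CPM against 281, 222 and 215 CPM and overlapped, as did Psme1, an activator of the proteasome, at 120, 352 and 367 CPM against 135, 86.6 and 89.8 CPM. H2-T23, a non-classical member, lay higher in Cre positive libraries at 27.3, 25.4 and 3.69 CPM against 48.6, 55.6 and 76.6 CPM. B2m and H2-T23 were named after their values were seen.

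Genes of inflammation took a small and even share of the reads, 0.0845% to 0.103% over the 6 libraries. Of 25 NF-kB and cytokine genes 18 had the lower level (relative median -0.45, from -0.44 without Cre negative 1 to 0.025 without Cre positive 1). On the lower side 5 lacked overlap (20%, against 11.8% of all genes), and 1 did on the higher side (4%, against 2.27%). Tlr2, a receptor for bacterial lipoproteins, measured 3.07, 40.2 and 23.5 CPM and had 1 read over the Cre positive libraries. Tnf measured 2.66, 10.5 and 10.3 CPM against 0 reads, and neither gene had enough reads to be tested at equal depth. Ikbkb, the kinase that frees NF-kB, was the 1 on the higher side, at 79.1, 97.9 and 71.7 CPM against 162, 174 and 166 CPM (log2 fold change 1.01, SE 0.41, edgeR unadjusted p = 0.0228). Of 24 interferon response genes 13 had the higher level (relative median 0.24, from 0.087 without Cre negative 1 to 0.48 without Cre positive 3), and 2 lacked overlap on each side, with Ifit3 higher at 4.05, 11.1 and 13.5 CPM against 14.8, 81.3 and 28.2 CPM. Mx2, another interferon-induced gene, lay lower, at 3.59, 13.6 and 14.9 CPM against 0, 0.744 and 1.57 CPM.

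**Figure D3:**
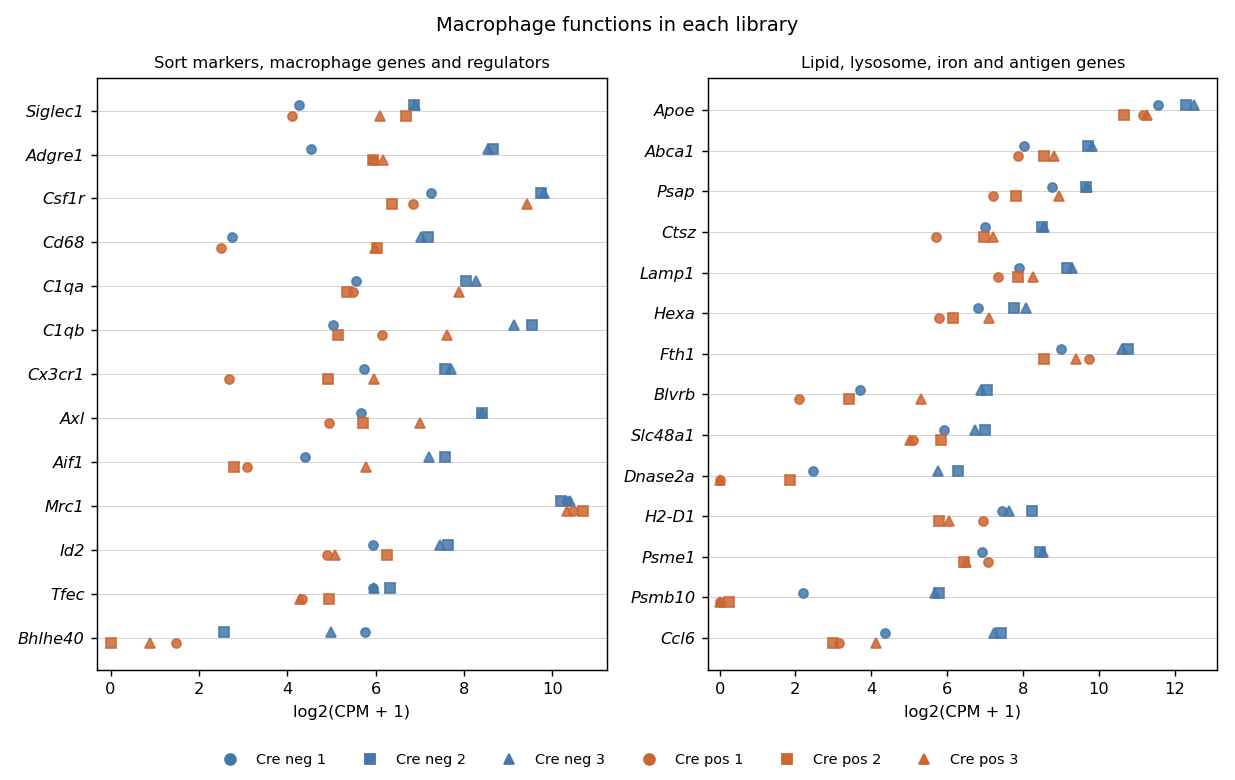
Levels of macrophage markers and regulators (left) and of lipid, lysosome, iron and antigen presentation genes (right) on a log2(CPM + 1) scale, 1 point per library, Cre negative in blue and Cre positive in orange. In most genes the blue circle of Cre negative library 1 lies among the orange points, and in Adgre1 and C1qb it lies to their left. Tfec, Bhlhe40, H2-D1, Apoe, Slc48a1, Dnase2a, Psmb10 and Ccl6 keep all 3 blue points to the right.

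Ribosomal protein genes were the most uniform of the large lists. Of 80 tested 76 had the lower level in Cre positive libraries, with a relative median of -0.56 (from -0.68 without Cre negative 1 to -0.094 without Cre positive 2). An unadjusted p under 0.05 was found for 28 of the 80, and 15 (18.8%) lacked overlap. Rps29 measured 200, 425 and 415 CPM against 151, 144 and 133 CPM (log2 fold change -1.28, SE 0.37, edgeR unadjusted p = 0.00297), Rps4x 407, 536 and 402 CPM against 178, 308 and 163 CPM, and Rpl17 286, 473 and 434 CPM against 209, 235 and 143 CPM. Rplp1, of the ribosomal stalk, measured 573, 1334 and 1514 CPM against 559, 635 and 416 CPM and overlapped. The first 3 had no overlap, but in 57 of the 80 genes (71.2%, against 13.1% of all genes) the 2 highest libraries were Cre negative 2 and 3. In 46 (57.5%) Cre negative library 1 lay inside the Cre positive range, as it did in 64.7% of all genes. Together these genes took 2.29%, 3.77% and 3.59% of reads against 2.54%, 2.34% and 2.21%. Ribosomal protein genes have many near-identical processed copies, and the division of reads among them by the counting is not known.

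Nuclear genes of oxidative phosphorylation had the lower level in 63 of 77 (relative median -0.50, from -0.59 without Cre negative 1 to -0.087 without Cre positive 2), and 13 lacked overlap on the lower side (16.9%). Ndufs5, a subunit of complex I, measured 12.4, 21.8 and 25.9 CPM against 0 reads, at least 27.8-fold lower, and Ndufs7, another, 54.3, 144 and 52.8 CPM against 22.3, 13.2 and 1.91 CPM. Cox6b1 of complex IV measured 85.4, 74.7 and 55.6 CPM against 13, 36.1 and 20.9 CPM. These 3 kept the genotypes apart, Cre negative library 1 with its group. The 7 mitochondrial genes tested for the same chain were also all lower (relative median -0.40, from -0.73 without Cre negative 1 to 0.077 without Cre positive 2), but none lacked overlap: mt-Nd1 measured 905, 2234 and 2117 CPM against 1103, 876 and 1017 CPM, and Cre negative libraries 2 and 3 were highest in all 7. Of 32 genes of the constitutive proteasome 22 had the lower level, with a relative median of -0.11 (from -0.35 without Cre negative 1 to 0.46 without Cre positive 2). Its member Psma1 measured 58.4, 65.2 and 57.3 CPM against 13.3, 10.6 and 6.96 CPM (log2 fold change -2.55, SE 0.82).

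Markers of other cells lay in several directions. Endothelial markers had the higher level in 18 of 24 (relative median 0.44, from 0.21 without Cre negative 3 to 0.77 without Cre negative 1), but only Tek, the angiopoietin receptor, lacked overlap on that side and Emcn, a sialomucin, on the lower. Tek stood at 512, 442 and 335 CPM against 545, 719 and 569 CPM, and Ptprb, a phosphatase of vascular endothelium, at 1186, 519 and 474 CPM against 1130, 1331 and 1062 CPM. In Ptprb, as for the summed share, Cre negative library 1 sat with the Cre positive libraries, and without it 12 of 24 markers lacked overlap on the higher side, where 4.65% of all genes did. That library lay within the Cre positive range in 14 of the 24 (58.3%, against 64.7% of all genes), so its omission removes overlap by construction. The part of endothelial RNA in the differences of macrophage genes was not tested.

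Stellate and mesenchymal markers had the lower level in 16 of 18 (relative median -1.71, from -2.0 without Cre negative 3 to -0.74 without Cre negative 1), and 8 lacked overlap. Their summed share overlapped, at 0.317%, 0.0882% and 0.0747% of reads against 0.0904%, 0.13% and 0.0833%. Every Cre positive share lay above that of Cre negative library 3, so the summed share was lower in Cre positive libraries only through Cre negative library 1. Col3a1, a fibrillar collagen, measured 641, 53.2 and 81.8 CPM against 0.72, 35.1 and 9.05 CPM, and Postn, a matrix protein, 45.1, 32.2 and 33.2 CPM against 12.6, 3.9 and 0.522 CPM. Col3a1 was highest by far in Cre negative library 1, whereas Postn was even across its group. Hepatocyte markers had the lower level in 17 of 22 (relative median -1.29), a direction that turned without Cre negative library 1, where the relative median was 0.91. Trf, transferrin, showed this library's weight at 1254, 219 and 212 CPM against 125, 64.3 and 156 CPM. Erythroid markers had the lower level in 13 of 17 (relative median -1.45, from -3.52 without Cre positive 3 to -0.75 without Cre negative 2, and -0.80 at equal depth). Alas2, the erythroid enzyme of heme synthesis, measured 14.2, 18.7 and 44.7 CPM against 0, 0.186 and 1.57 CPM. The globin Hbb-bs lay the other way through Cre positive library 3, at 5.82, 34.3 and 12 TPM against 0, 0 and 258 TPM. The summed erythroid share overlapped, at 0.0175%, 0.0466% and 0.0476% of reads against 0.02%, 0.0173% and 0.0577%.

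**Figure D4:**
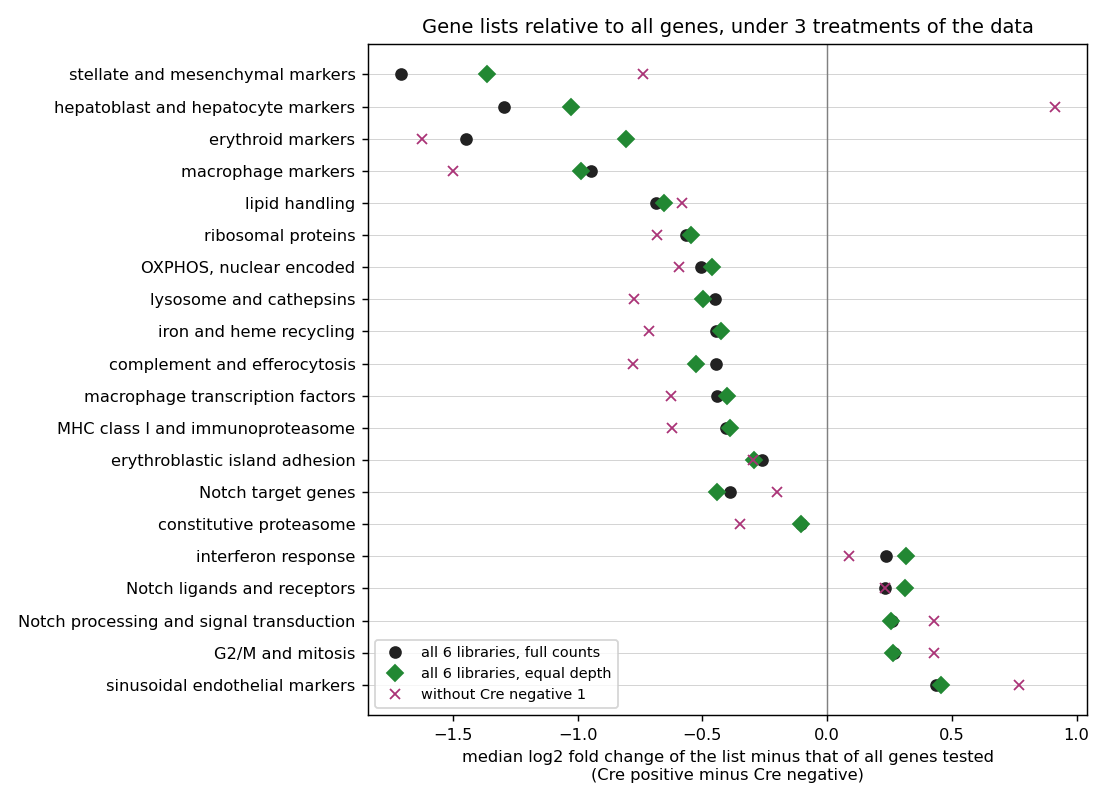
Median log2 fold change of 20 gene lists minus that of all genes tested (horizontal axis, Cre positive minus Cre negative), for all reads, at equal depth and without Cre negative library 1. Macrophage markers moved from -0.95 to -1.50 and hepatocyte markers from -1.29 to 0.91 when that library was left out, while equal depth moved both by less.

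The targeted gene and its pathway were examined next. Jag1 (chromosome 2, 137081456 to 137116644, minus strand) measured 52.6, 21.1 and 26.3 CPM against 0, 10.6 and 6.79 CPM. Each Cre positive library lay below each Cre negative one, with a log2 fold change of -2.51 (SE 1.42) and an exact two-sided permutation p = 0.1, the smallest that the design allows. At equal depth the log2 fold change was -1.95 (edgeR unadjusted p = 0.2). Which exons the reads came from is not given by gene counts, so reads from outside the floxed part would still be counted. The cell type that supplied the Jag1 reads was not tested.

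Other Notch ligands and receptors overlapped between genotypes with all reads. Dll4, a ligand of endothelium, measured 104, 103 and 102 CPM against 56.5, 195 and 74.8 CPM, and Jag2 20.4, 17.2 and 14.1 CPM against 22.7, 18.8 and 46.5 CPM. Notch1 measured 654, 322 and 409 CPM against 417, 615 and 641 CPM, and Notch2, a receptor of myeloid cells among others, 41, 88.1 and 107 CPM against 49.3, 28.8 and 92.2 CPM. Notch4, a receptor of endothelium, measured 217, 113 and 67.2 CPM against 116, 348 and 142 CPM. Within the Cre negative group Notch1 and Notch4 were highest in library 1, as was the endothelial share, and Notch2 was lowest there, as was the macrophage share. Of 9 ligands and receptors tested, 4 had the lower level (relative median 0.23, from -0.19 without Cre positive 3 to 0.67 without Cre positive 1), and Jag1 was the only 1 without overlap.

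Of 28 genes that process or tune the Notch signal, Lfng and Numb lacked overlap, with all reads and at equal depth. With all reads that was 3.57% on the lower side, against 11.8% of all genes, and 3.57% on the higher, against 2.27%. The list thus held a smaller share than all genes on the lower side and 1 gene on the higher. Lfng, the glycosyltransferase that changes which ligands a Notch receptor answers to, measured 45.4, 44.2 and 49.6 CPM against 7.92, 19.7 and 10.1 CPM (log2 fold change -1.88, SE 0.90, edgeR unadjusted p = 0.0526). Numb, an inhibitor of Notch, measured 150, 111 and 120 CPM against 231, 244 and 214 CPM (0.85, SE 0.36, edgeR unadjusted p = 0.0298). Numb had close values within each genotype, and Lfng within the Cre negative one only. In both genes Cre negative library 1 lay beside its own group. The list as a whole had 15 members higher and 13 lower, with a relative median of 0.26 (from 0.12 without Cre negative 2 to 0.54 without Cre positive 2).

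Notch target genes were low and mostly overlapped. Of 19 tested, 13 had the lower level (relative median -0.39, from -0.47 without Cre negative 2 to 0.31 without Cre positive 2). On the lower side 3 lacked overlap (15.8%, against 11.8% of all genes), and 0 members reached an unadjusted p under 0.05. Hes1, the classic target, measured 32.7, 48.6 and 16.9 CPM against 3.24, 24.5 and 0.522 CPM, and Hes6 26.1, 10.6 and 5.07 CPM against 0, 2.23 and 0 CPM. Hes6 lacked overlap and Hes1 did not, since Cre positive library 2 lay above Cre negative library 3. Efnb2, a target in arterial endothelium, measured 134, 126 and 139 CPM against 104, 118 and 70 CPM, without overlap with all reads only, and Bcl2 54.3, 27.5 and 34.9 CPM against 101, 58 and 16.7 CPM. Cdkn1a, the cell cycle inhibitor p21, was the third member without overlap. HSC-supportive factors made by niche cells had the lower level in 13 of 18 (relative median -0.07, from -0.22 without Cre positive 3 to 0.25 without Cre positive 2), among them Kitl, the stem cell factor, at 71.8, 52.4 and 45.3 CPM against 37.4, 37.4 and 39.3 CPM, without overlap.

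**Figure D5:**
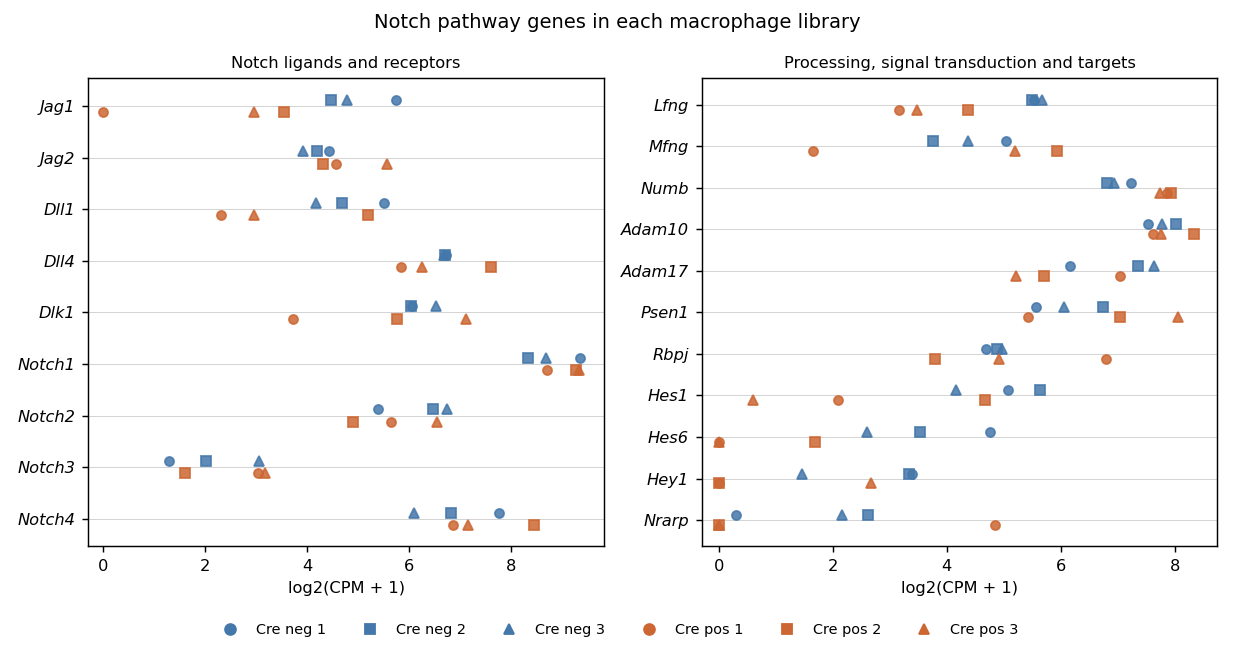
Levels of 9 Notch ligands and receptors (left) and of 11 processing, signal transduction and target genes (right) on a log2(CPM + 1) scale, 1 point per library, Cre negative in blue and Cre positive in orange. Jag1 and Lfng keep the orange points to the left and Numb to the right, and the genotypes overlap in Notch1, Notch2, Notch4 and Dll4.

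Whether the genotype effect in macrophages differed from that in HSCs was tested as an interaction over 20128 genes. These had an identifier in the counts of both sorts and passed the filter on low counts, which reads from either sort alone can satisfy. The edgeR adjusted p was under 0.05 for 14 genes (0.0696%) and the unadjusted p for 8.62% of genes, and in all 14 the genotype effect was the more negative in macrophages. Each gene's variance was estimated over all 12 libraries of both sorts, so these p-values do not measure the spread between macrophage libraries alone. Psmb10, Ppan, Sephs2, Rbp4 and Ndufs5 of the genes above were among them, and Psmb10 had a mean of 135 CPM in Cre positive and 85.5 CPM in Cre negative HSCs. At equal depth the adjusted p rose to 0.12 for Rbp4 and 0.102 for Ndufs5 by edgeR, and 8 genes passed in all. The count depended on single libraries: leaving out Cre positive library 1, 2 or 3 gave 108, 210 or 104 genes, and leaving out Cre negative library 1 gave 23. No ribosomal protein gene, macrophage marker or Notch gene was among the 14.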

How the data were processed

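The authors deposited whole-number read counts for each gene, without normalization. Per the submitters' processing notes the macrophage reads were counted on mm10, while their aligner, counter, annotation and strand setting were not given in the sources used here. Some genes are not reported here. Names came from GENCODE M21; 4855 of 56980 identifiers had none and took 3.92% to 5.9% of reads. Genes passing filterByExpr were tested in edgeR 4.0.16 with TMM factors and its robust quasi-likelihood model (limma 3.58.1, DESeq2 1.42.0, R 4.3.3) with Benjamini-Hochberg adjustment at 0.05, the 2 genotypes without covariates. CPM use TMM-scaled totals, and TPM divide by exon length. Thinning drew reads without replacement to 2602934 (3 draws, the first shown). A count of 3 is the floor; intervals and floors cover counting error only, since amplified reads are not independent molecules. The code was tested on simulated data.

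Named genes were Jag1, 12 per direction by smallest unadjusted p among those without overlap in full and thinned counts and at least 20 CPM (sex-linked markers, predicted models and pseudogenes left out), up to 4 members per list by p with at least 5 CPM, markers, and 4 interaction genes per direction; Maf, Spi1, Vcam1, Maea, Slc40a1, Hmox1, Tpp1, Cd63, Fabp5, Mgll, the C1q and Fc receptor genes shown with sequence, Tnf, Mx2, Notch genes past the first 4 of a list, genes named for lacking overlap and those called without 1 library were added after values were seen. Members and the 39 lists were chosen with earlier results of these data known, and the lists described were picked after values were seen. Replicate numbers were not taken as pairs in the main fit. Deviations of same-numbered libraries correlated at 0.01, -0.06 and 0.04, which cannot exclude pairing, since they are deviations from means of 3 libraries. Alternatives were other scalings, filters, DESeq2, limma-voom, thinning draws, a replicate block, a sex term and leaving out each library.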

Additional observations from a re-analysis of the deposited data

Results flagged for a closer look

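By an edgeR quasi-likelihood interaction with Benjamini-Hochberg adjustment, the test of the difference itself, 14 genes had a genotype effect called different between macrophages and HSCs. The model estimated each gene's variance over all 12 libraries, so these p-values do not measure the spread between macrophage libraries alone. For Sephs2 the unadjusted edgeR p was 7.56e-08 in the interaction and 0.00111 in the macrophage fit. Sephs2 and Tmem256 had an edgeR adjusted p of 0.000902, 1810037I17Rik and Psmb10 of 0.00307, and Mycn of 0.00427. Ppan followed at 0.0311, Myl9 at 0.0354, and Acy1 and Rbp4 at 0.0363. Epor stood at 0.0376, Ndufs5 and Atox1 at 0.0416 and Tpgs1 at 0.0478. All 14 were lower in Cre positive than in Cre negative macrophages.

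Of the 14 genes 8 had 0 reads in Cre positive macrophages, whose libraries were the shallower ones of that sort, and 4 had 1 to 3. Against the floor of 3 reads per library, Tmem256 was at least 25.2-fold lower in Cre positive macrophages, Myl9, a myosin light chain, at least 13.5-fold lower, and Epor, the erythropoietin receptor, at least 10.7-fold lower. Mycn, a transcription factor of the MYC family, measured 3.13, 6.21 and 9.13 CPM in Cre negative macrophages and had means of 364 and 345 CPM in Cre negative and Cre positive HSCs. Ppan was the best covered of the 14 in Cre positive macrophages, with 60 reads, and had means of 145 and 148 CPM in Cre negative and Cre positive HSCs. With macrophage libraries at equal depth 7 of the 14 remained under 0.05, and with limma-voom 4.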

How the results depend on the processing

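No gene had an adjusted p under 0.05 in either direction with RLE, upper-quartile or total-count scaling, limma-voom, a mean of at least 5 CPM, 3 draws at equal depth, mitochondrial ribosomal RNA left out, or sex as a term (added after the data were seen, smallest adjusted p 0.0513). DESeq2 called 8 higher and 46 lower genes, and no filter on low counts 0 and 21. The 4 libraries with Xist reads, an added choice, gave 0 and 2 (mt-Rnr1 and mt-Rnr2). Leaving out 1 library gave 0 to 3 higher and 1 to 31 lower calls: 7 lower when Cre negative replicate 1 was omitted, 4 for Cre positive replicate 1, 31 for Cre positive replicate 3 and 1 for each of the others. Whether replicate numbers pair the libraries is not known, and the replicate block gave 0 higher and 13 lower calls. The cause of these shifts was not tested.

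The count of genes whose genotype effect differed between sorts, 14, was 8 with macrophages at equal depth, 12 with limma-voom (4 shared), 96 with the replicate block and 14 to 210 with 1 macrophage library left out: 23 when Cre negative replicate 1 was omitted, and 108, 210 and 104 for Cre positive replicates 1, 2 and 3. The cause was not tested. Jag1 stayed lower under every setting run, with log2 fold changes of -3.65 to -1.51. For Jag1 and the 24 leading genes, whose direction the choice without overlap largely fixes, 30 of 498 alternative values passed the threshold anew. For 103 other named genes 8 of 2027 values turned direction. Many of those genes were taken by smallest p in the main fit, a choice that also favours a steady direction. Alb (-1.74 with all libraries) was at 0.69 with limma-voom and 0.90 in the 4 Xist libraries, and ran from -2.27 to 1.15 with 1 library left out, positive without Cre negative replicate 1. Hbb-bs (1.80) was at -3.56 with limma-voom and -3.95 with the replicate block, and ran from -9.26 without Cre positive replicate 3 to 2.86. Notch4 ran from -0.076 without Cre positive replicate 2 to 1.16, and Bcl2 from -0.11 without Cre positive replicate 1 to 0.98. With no filter on low counts the median of all genes was -1.14, and relative medians of most lists that were negative became positive. In Cre positive libraries the floor of 3 reads lies at 0.522 to 1.08 CPM, so a level of 0 there allows values up to that.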

Other observations

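Of 19 heat shock and chaperone genes tested 14 had the lower level, with a median of -0.06 relative to all genes (from -0.43 without Cre negative 3 to 0.41 without Cre positive 2), and 4 lacked overlap on the lower side. Hspa5, the reticulum's main chaperone, measured 573, 925 and 849 CPM in Cre negative and 358, 532 and 533 CPM in Cre positive libraries, and Hspd1, the mitochondrial chaperonin, 187, 156 and 176 CPM against 132, 85.2 and 46.1 CPM. Hspd1 kept the genotypes apart at equal depth and Hspa5 did not. Genes of TGF-beta and BMP signalling had the higher level in 15 of 24 (relative median 0.35, from 0.17 without Cre negative 2 to 0.77 without Cre positive 2), with Bmp2, which sinusoidal endothelium secretes, at 346, 219 and 237 CPM against 271, 489 and 534 CPM. Id1, a target of BMP signalling, lay the other way at 118, 119 and 82.7 CPM against 49.3, 72.7 and 42.8 CPM, without overlap in either count.

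Genes of mitosis had the higher level in 20 of 35 (relative median 0.27, from 0.069 without Cre negative 3 to 0.76 without Cre positive 2), with members on both sides. Aurka, the Aurora A kinase, measured 61.6, 83.6 and 66.9 CPM against 23.4, 27.9 and 31.5 CPM (log2 fold change -1.36, SE 0.63), whereas Bora, its activator, lay on the higher side. Mad2l1, of the spindle checkpoint, measured 27.7, 40.1 and 38.6 CPM against 127, 54.7 and 53.6 CPM. MHC class II presentation genes had the lower level in 9 of 10 (relative median -0.96, from -3.37 without Cre positive 3 to -0.78 without Cre positive 2) but took only 0.00726% to 0.0657% of reads. Ctss, the cathepsin that trims the invariant chain, measured 13.1, 340 and 349 CPM against 95.4, 35.5 and 184 CPM, again with Cre negative libraries 2 and 3 highest. No gene of these 4 lists had an edgeR adjusted p under 0.05, and the cause of the differences was not tested.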
